A study of Mus musculus with 3 samples.

Results

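The axon guidance ligands and receptors of the neural retina were examined on 3 oligonucleotide arrays. Members were the genes whose single symbol in the platform annotation placed them among the ephrins, Eph receptors, semaphorins, plexins, neuropilins, Slit and Robo genes, netrins, Unc5 receptors, collapsin response mediator proteins or Rgm genes, or was Dcc, Neo1, Rtn4, Reln, Dab1 or Fyn. The choice used names and no measured value. It gave 54 genes with 69 probe sets, of 8251 genes with 10833 probe sets that carried a single symbol. Slit and Rgm genes were not analysed here. Unc50 entered through the first letters of its symbol, although its product is a Golgi-associated membrane protein and not a netrin receptor, and its values are given apart.

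Axons and dendrites steer by proteins that are fixed in the membranes of neighbouring cells or secreted by them, and by receptors at the growing tip that turn such contacts into attraction or repulsion. Ephrins signal to Eph receptor tyrosine kinases on contact, semaphorins to plexins and neuropilins, slits to Robo receptors, and netrins to Dcc, neogenin and the Unc5 proteins. In the visual system these families guide ganglion cell axons out of the eye and order them on their targets in the brain, and transmembrane semaphorins and plexins help to place neurites in the layers of the inner retina. Collapsin response mediator proteins, and the adaptor Dab1 with the kinase Fyn on the reelin side, carry such signals to the cytoskeleton inside the cell.

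All arrays came from Rp1-/- mice on a mixed 129/SvEv and C57BL/6 background. These mice lack Rp1, a microtubule-associated protein of photoreceptor outer segments. Neural retinas were taken at postnatal day 10, between 1 and 2 pm, and each RNA sample pooled 3 to 4 mice. The 3 pools form 1 group, their numbers are names only, and control retinas were not analysed here, so every comparison is between pools of mutant retinas. The labels do not say whether pools shared animals, so the spread between them may be technical.

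Signals are in scaled intensity units, as deposited. Each array's background floor, taken as the 90th percentile of 19 control sets for bacterial or yeast RNA, stood at 100.5 units in pool 1, 124.8 units in pool 2 and 120.4 units in pool 3. A gene is called measured where the mean signal of its probe set exceeded the mean floor. Of several probe sets of a gene, the set of highest mean stands for the gene, and SDs are over n = 3 pools. Signals of different probe sets are not relative amounts of transcript, since probes differ in how strongly they bind.

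The arrays had nearly equal median signals, between 232.9 and 233.8 units, and 8133 to 8657 of 12422 probe sets lay above the floor. The annotation named no probe set for Rp1, so its loss was not checked here. Pool 1's title has no rp1 tag, unlike the others, while its description gives the same genotype. Markers of the neural retina were present: 15 of 15 photoreceptor genes, 10 of 11 ganglion cell genes and 12 of 13 amacrine and horizontal cell genes exceeded the floor in every pool. Lens markers were present too, with 11 of 12 above it on all arrays. Their summed signals were 94913.7 units in pool 1, 25459.7 units in pool 2 and 203614.4 units in pool 3.

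Most members were present in these retinas. Of the 54 genes, 39 (72.2%) exceeded the floor on all arrays, against 66.4% of all genes. A further 4 were above it on 2 arrays, 6 on 1 array and 5 on none, and 44 counted as measured. Receptors were above the floor on all arrays in 16 of 20 genes and ligands in 14 of 25. The genes above it on no array were Efna1, Efna5, Epha2, Sema3b and Sema3c. In whole retina, expression in few cells and little RNA per cell cannot be told apart. A signal under the floor can also come from probes that bind poorly, so it does not show that a transcript was absent.

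None of the 44 measured members was called more variable between pools than probe sets of like signal, against 0.225% of all measured genes that were (limma, adjusted p under 0.05). The smallest adjusted p among members was 0.587, for Sema4b. At an unadjusted p under 0.05, 3 members (6.82%) passed, Sema4b, Crmp1 and Sema3e, beside 5.1% of all genes. The test compares 3 pools and asks only about spread. Its result does not show that the members had equal levels in the pools.

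**Figure D1:**
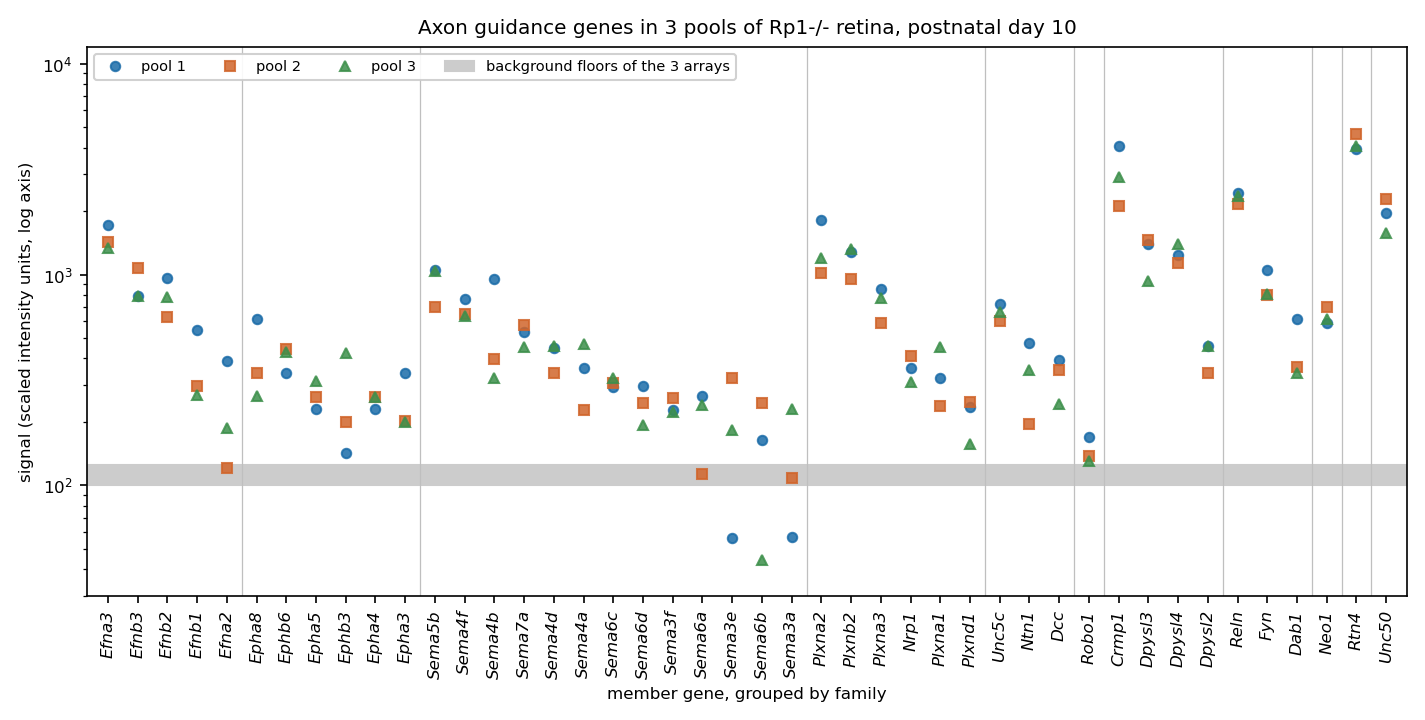
Signals of the 44 measured members in pools 1, 2 and 3 (log axis, scaled intensity units), arranged by family, with 1 point per pool. Points of a gene such as Reln, Rtn4 or Sema6c lie close together, while those of Sema4b, Ephb3, Efna2 and Sema3e lie far apart. The grey band spans the floors of the arrays, and points of Sema3e, Sema3a and Sema6b lie below it.

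Among the ligands, ephrins of both classes were found. Class A ephrins are held in the membrane by a lipid anchor and class B ephrins span it, and both bind Eph receptors on the facing cell. All 3 class B genes exceeded the floor in every pool, but of the 5 class A genes only Efna3 did. Efna3 had signals of 1725.7, 1433.7 and 1338.7 units in pools 1, 2 and 3, a mean of 1499 ± 202 units. Its pools stayed within 1.29-fold.

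Efnb2, a ligand of EphB receptors and Epha4 that also acts in arteries, had 966.3, 627.5 and 780.4 units in pools 1, 2 and 3. Efnb3 had 791.2, 1073.4 and 790.7 units with its stronger probe set. Its second probe set read 925, 712.7 and 518.9 units, so the sets named different pools as the highest. Efnb1, which is encoded on the X chromosome, had 547 units in pool 1, 294.7 units in pool 2 and 267.3 units in pool 3. Pool 1 stood apart from the others, and the ends of the range were 2.05-fold apart (limma, adjusted p = 0.987). Efna2, a class A ligand that takes part in ordering retinal axons in the superior colliculus, had 389.8, 120.9 and 186.4 units. Pool 2 was under its floor, which makes pool 1 at least 3.12-fold higher than pool 2 (limma, adjusted p = 0.959).

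The remaining class A ephrins gave little signal. Efna5, known for its graded expression in the colliculus, read 40.6, 27.9 and 98.1 units in pools 1, 2 and 3, under the floor everywhere. Efna1 read between 36.2 and 80.6 units. Efna4 passed the floor in pool 2 alone, at 141.6 units, against 97.1 units in pool 1 and 36.5 units in pool 3.

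Of the 9 Eph receptors, 6 were above the floor on all arrays. Epha8, an EphA receptor, was highest in pool 1, with 615.9 units, against 342.8 units in pool 2 and 264.3 units in pool 3. The range was 2.33-fold (limma, adjusted p = 0.961). Ephb3, a receptor of class B ephrins, ran in another order, with 142.2 units in pool 1, 199.7 units in pool 2 and 422.4 units in pool 3. Here pool 3 stood apart and the range was 2.97-fold (limma, adjusted p = 0.961).

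Other Eph receptors were steadier. Ephb6, whose kinase domain is inactive, had 340.4, 445.6 and 428.1 units in pools 1, 2 and 3, and its second probe set, of a class chosen under relaxed rules, had 383.5, 360.9 and 383.1 units. Epha5, which binds class A ephrins, had 231.4, 263 and 311.5 units with the stronger probe set. The other Epha5 set read 50.3, 132.6 and 146.5 units, under the floor in pool 1. In both sets pool 1 was the lowest and pool 3 the highest. Epha4, which binds ephrins of both classes, had 229.4, 262.7 and 262.1 units with 1 set and 54.9, 190.1 and 44.5 units with the other. Both sets were highest in pool 2, but the weaker one was above the floor there alone. Epha3, another receptor of class A ephrins, had 341.9 units in pool 1, 203 units in pool 2 and 198.9 units in pool 3.

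Epha2, Epha6 and Epha7 were not measured. Epha2 read 33.7 to 53.9 units. Epha6 was above the floor in pool 1 alone, with 128.2, 78.8 and 50.4 units in pools 1, 2 and 3. The stronger set of Epha7, a receptor of class A ephrins, read 130.7, 110.5 and 10.5 units, above the floor in pool 1 alone, and its other set read 45.5, 59.9 and 34.1 units.

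Semaphorins were the largest family, with 16 genes, of which 9 were above the floor on all arrays and 13 were measured. Class 3 members are secreted, classes 4 to 6 span the membrane and class 7 is lipid-anchored. All 4 class 4 genes exceeded it in every pool, as did 2 of 4 in class 6, 1 of 2 in class 5 and 1 of 5 in class 3. Of the 11 members over 2-fold apart between pools, 6 were semaphorins, which is 46.2% of the 13 measured, beside 12.1% of all measured genes. In Sema3a, Sema3e, Sema6a and Sema6b among them the lowest pool was under its floor.

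Sema5b, which with Sema5a keeps inner retinal neurites out of the outer retina in the mouse, had 1049.8, 698.6 and 1043.5 units in pools 1, 2 and 3. Pool 2 was the low one. Sema5a was not measured and read 121.7, 84.6 and 114.9 units, above the floor in pool 1 alone. Sema4f had 763, 648.5 and 635.5 units, a range of 1.20-fold. Sema7a, which binds an integrin and a plexin, had 533.8, 573.6 and 452.3 units with 1 set and 263.5, 61.2 and 208.3 units with the other. Pool 2 was highest in the stronger set and lowest, under its floor, in the weaker one.

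Class 4 held the member with the smallest adjusted p. Sema4b had 950.6 units in pool 1, 398.7 units in pool 2 and 323 units in pool 3, so pool 1 stood alone and the range was 2.94-fold (limma, adjusted p = 0.587). That probe set has the f suffix, which marks probes that can bind related transcripts. The other Sema4b sets read 502.3, 271.1 and 468.7 units and 165.1, 117 and 199.6 units, with pools 1 and 3 near each other and pool 2 lowest. Pool 1 lay far above pool 3 with the f set alone.

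Sema4a, whose loss causes photoreceptor degeneration in mice, had 359.7 units in pool 1, 228.2 units in pool 2 and 469.2 units in pool 3. The range was 2.06-fold, with pool 2 lowest (limma, adjusted p = 0.987). A second Sema4a set was under the floor on all arrays, at 99.2, 75.1 and 11.3 units. Sema4d, a ligand of plexin B1, had 449.9, 339.9 and 459.9 units, also lowest in pool 2.

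In class 6, Sema6a, which acts with plexin A2 and plexin A4 in the layering of the mouse inner retina, had 266.1, 113 and 240.9 units in pools 1, 2 and 3. Pool 2 was under its floor, and pool 1 was at least 2.13-fold higher than pool 2 (limma, adjusted p = 0.987). Sema6b had 163.3, 246.7 and 44.1 units, with pool 3 under its floor and pool 2 at least 2.05-fold higher than pool 3 (limma, adjusted p = 0.987). The low pool therefore differed between these class 6 genes. Sema6c had 292.6, 304.8 and 323.6 units, the narrowest range of any measured member at 1.11-fold. Sema6d, a ligand of plexin A1, had 296.8, 247 and 192.4 units.

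Secreted semaphorins other than Sema3f were under the floor in at least 1 pool. Sema3e, which repels growing vessels of the mouse retina through plexin D1, had 56 units in pool 1, under the floor, 323.7 units in pool 2 and 182.6 units in pool 3. Pool 2 was at least 3.22-fold higher than pool 1 (limma, adjusted p = 0.911). Sema3a, a repellent that signals through neuropilin 1, had 57, 107.9 and 231.5 units, above the floor in pool 3 alone. Pool 3 was at least 2.30-fold higher than pool 1 (limma, adjusted p = 0.987). Sema3f, a ligand of neuropilin 2, had 228.7, 260.4 and 222 units, above the floor in every pool. The 2 probe sets of Sema3b read 3.5 to 46.1 units and the set of Sema3c read 11.6 to 66.5 units.

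Of the semaphorin receptors, the members held Nrp1, Plxna1, Plxna2, Plxna3, Plxnb2 and Plxnd1. Neuropilin 2, plexin B1 and plexin A4 were not among them. All 6 plexin and neuropilin genes exceeded the floor in all pools, and none was over 2-fold apart. Plxna2, a receptor of class 6 semaphorins, had 1818.3, 1017.1 and 1192.6 units in pools 1, 2 and 3, a mean of 1343 ± 421 units, with pool 1 highest. Plxnb2, a receptor of class 4 semaphorins, had 1280.3, 952.1 and 1319 units. Its second set followed the same order, with 1076.4, 906.5 and 1223.8 units.

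Plxna3, with Plxna1 a receptor of Sema5a and Sema5b in the mouse retina, had 849.7, 586.2 and 775.8 units in pools 1, 2 and 3. Plxna1 had 324.5, 238.8 and 451.4 units. Both were lowest in pool 2, as was Sema5b. Nrp1, the co-receptor that binds secreted semaphorins, had 358.9, 410.1 and 308.1 units with 1 set and 167.7, 245.3 and 187 units with the other, both highest in pool 2. Plxnd1, the vessel receptor of Sema3e, had 235.9, 249.1 and 156.8 units. Endothelial markers, which would accompany vessel RNA, summed to 2763.4 units in pool 1, 2725.2 units in pool 2 and 3610.5 units in pool 3, and their part in the Plxnd1 values was not tested.

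Netrin 1, made at the optic disc, draws ganglion cell axons out of the eye through Dcc. Ntn1 had 471.2 units in pool 1, 196.3 units in pool 2 and 354 units in pool 3, lowest in pool 2 with a range of 2.40-fold (limma, adjusted p = 0.986). Its second set read 127.2, 32.3 and 119.9 units, also lowest in pool 2 and above the floor in pool 1 alone. Dcc had 392, 353.8 and 243.3 units. Unc5c, a receptor for the repulsive response to netrin, had 727.9, 605.3 and 664.5 units, a range of 1.20-fold. Ntn1, Dcc and Unc5c shared pool 1 as the highest. Neo1, which encodes another netrin receptor, was lowest in pool 1 and highest in pool 2. Markers of optic nerve glia summed to 1483.3, 1425.7 and 1371.2 units in pools 1, 2 and 3.

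Robo1, a slit receptor, had 169, 137.5 and 130.4 units in pools 1, 2 and 3, just above the floor on every array. Robo3, known for commissural axons of the spinal cord and hindbrain, was not measured, with 109.4, 35.4 and 116.6 units, and passed the floor in pool 1 alone. Neo1, encoding neogenin, a receptor of netrins and repulsive guidance molecules, had 589.5, 704.3 and 618.6 units, a range of 1.19-fold. Rtn4, which encodes the neurite growth inhibitor Nogo, had 3945.6, 4665.4 and 4060.8 units, a mean of 4224 ± 387 units. Both Neo1 and Rtn4 had pool 2 highest by a narrow margin. Unc50 had 1949, 2293.9 and 1573.8 units, with pool 2 highest.

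All 4 genes of the collapsin response mediator proteins exceeded the floor in every pool. Crmp1, which relays the response to Sema3a, had 4062.3 units in pool 1, 2113 units in pool 2 and 2899.8 units in pool 3, a range of 1.92-fold with pool 1 highest (limma, adjusted p = 0.867). Its SD of 0.47 on the log2 scale compares with a median of 0.19 among genes of like mean signal. Dpysl3 had 1389.3, 1456.7 and 932.3 units, lowest in pool 3. Dpysl4 had 1240.1, 1139 and 1398 units. Dpysl2, whose product binds tubulin and promotes axon growth, had 456.4, 341.5 and 457 units. Dpysl2 and Dpysl4 were lowest in pool 2, as Crmp1 was, so the 4 paralogs did not all share an order.

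Reelin is a secreted protein that acts through lipoprotein receptors and Dab1, and its signal was steady. Reln had 2428.2, 2150.1 and 2365.9 units in pools 1, 2 and 3, a mean of 2315 ± 146 units and a range of 1.13-fold. Its second set, of the relaxed class, read 182.4, 213.8 and 145.8 units in another order. Fyn, the kinase that phosphorylates Dab1, had 1046.6, 796.9 and 810.4 units. Dab1 had 617.7, 364.7 and 341.4 units with a set of the s class, which can bind related transcripts, and 8, 24.4 and 3.4 units with the other, far under the floor. Fyn and the stronger Dab1 set were highest in pool 1, with pools 2 and 3 close together.

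**Figure D2:**
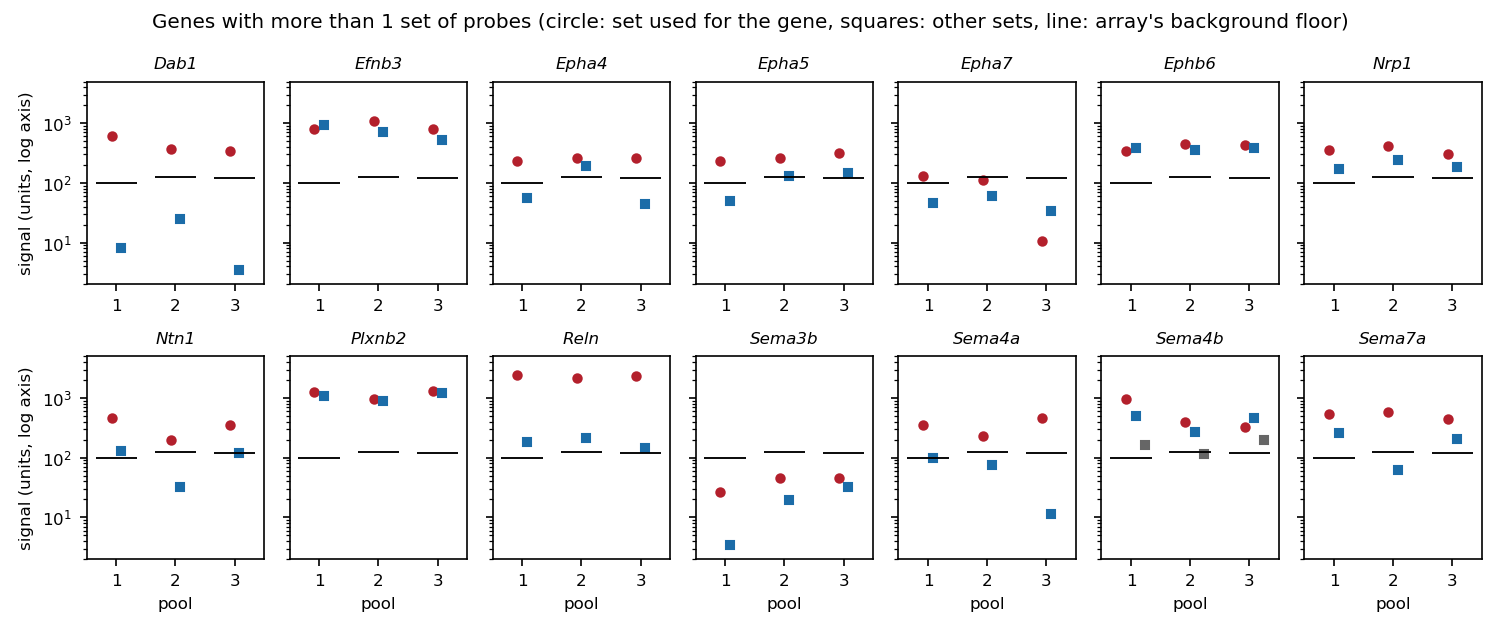
Signals of the 14 members with more than 1 probe set in pools 1, 2 and 3 (log axis, scaled intensity units), where red circles mark the set that represents the gene, blue and grey squares the others, and black lines each array's floor. The sets of Plxnb2 lie together, while those of Reln and Dab1 are far apart in signal.

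Where a gene had several probe sets, they seldom ranked the pools alike. Of 14 members with more than 1 set, 7 had more than 1 that was measured. In 2 of these 7, Nrp1 and Plxnb2, the sets named the same pool as the highest. In Efnb3, Ephb6, Reln, Sema4b and Sema7a they named different ones. Suffix classes marked the representing set of Sema4b, Dab1 and Sema6c.

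The members' spread between pools was read against that of all genes. Their median SD of log2 signal was 0.30, against 0.26 for all measured genes. When all measured genes were divided into 10 classes of mean signal, 24 members lay above the median SD of their class and 20 at or below it. The members' median mean signal was 412 units, against 499.6 units for all measured genes.

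Over 2-fold apart between any pair of pools were 11 of 44 members (25%), against 12.1% of all measured genes. These were Efna2, Efnb1, Epha8, Ephb3, Ntn1, Sema3a, Sema3e, Sema4a, Sema4b, Sema6a and Sema6b. Of them 9 were ligands and 2 were receptors, among 19 measured ligands and 16 measured receptors. Weighted by the members' classes of signal, the share of all genes was 12.8%, or 5.65 genes of 44. In 5 of the 11 the lowest array was under its floor, and all 5 were ligands: Efna2, Sema3a, Sema3e, Sema6a and Sema6b. Among genes above the floor on all arrays, 6 of 39 members (15.4%) were over 2-fold apart, against 8.63% of all such genes. These were the ligands Efnb1, Ntn1, Sema4a and Sema4b and the receptors Epha8 and Ephb3.

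**Figure D3:**
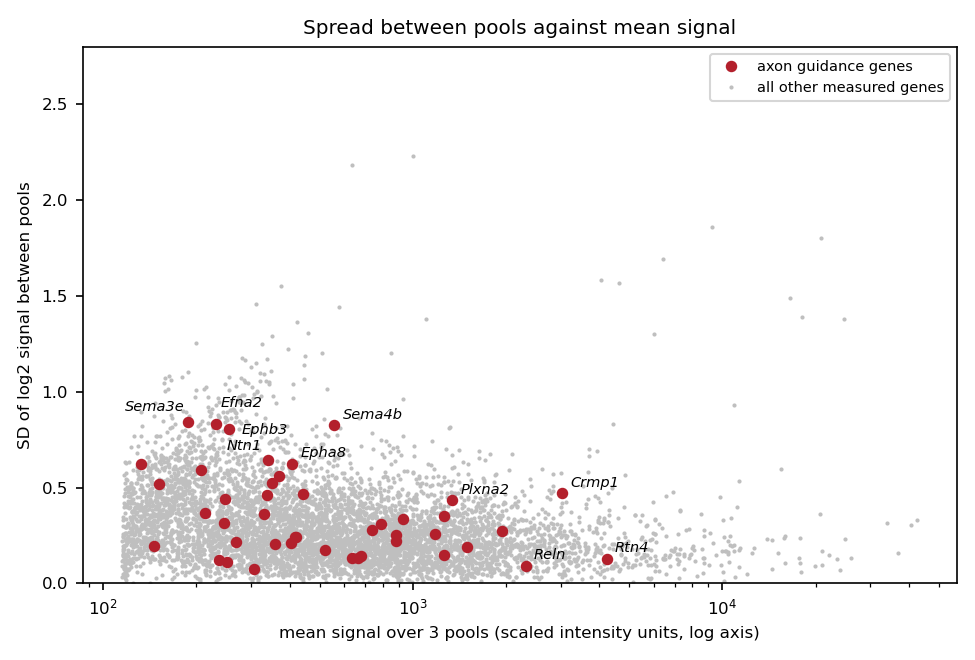
SD of log2 signal between pools against mean signal (log axis, scaled intensity units) for the 44 measured members (red) and all other measured genes (grey). Members lie within the cloud of other genes, with Sema3e, Efna2, Sema4b and Ephb3 at its upper side and Reln and Rtn4 in its lower part.

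Each pair of pools gave few such members. Between pools 1 and 2, 5 of 44 members (11.4%) were over 2-fold apart, 4 higher and 1 lower in pool 1, beside 5.65% of all genes. Between pools 1 and 3, 6 members (13.6%) were, 4 higher and 2 lower in pool 1, beside 6.18%. Between pools 2 and 3, 3 members (6.82%) were, 1 higher and 2 lower in pool 2, beside 4.86%. With 1 array a pool, these folds have no replicate check.

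The members leaned toward pool 1 by a small amount. Over the 44 genes the median log2 ratio of pool 1 to pool 2 was 0.27, with 27 genes (61.4%) higher in pool 1, against a median of 0.00 and 49.8% for all genes. The ratio of pool 1 to pool 3 had a median of 0.18, with 29 genes (65.9%) higher in pool 1, against 0.00 and 49.9%. Pools 2 and 3 differed by 0.02, with 23 genes (52.3%) higher in pool 2, against 0.01 and 50.8%. Pool 1 held the highest signal of 21 members (47.7%), pool 2 of 13 (29.5%) and pool 3 of 10 (22.7%), beside 34.6%, 33.6% and 31.8% of all genes. Pool 1 is the one whose title lacks the rp1 tag, and whether its genotype bears on this lean was not tested. Without the filter on low signal, the first median was 0.09 and the second 0.07, beside -0.14 and -0.13 for all genes there.

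**Figure D4:**
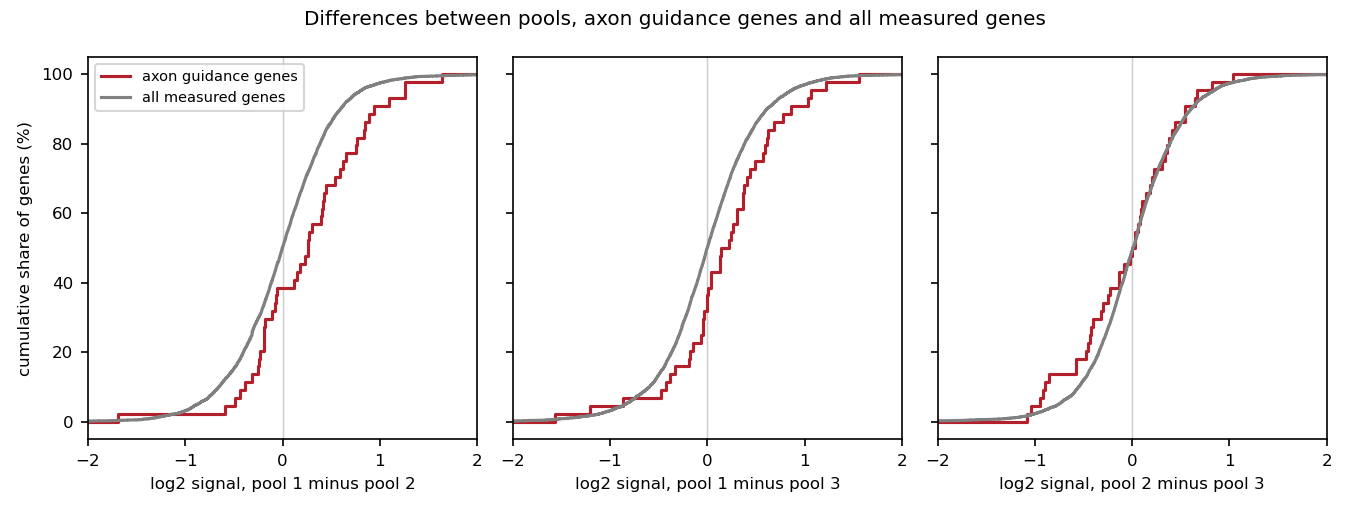
Cumulative share of genes (%) against the log2 difference in signal between 2 pools, with 1 panel per pair, for the 44 measured members (red) and all measured genes (grey). The red line runs to the right of the grey one over most of the panels of pool 1 against pools 2 and 3, and both lines cross 0 near each other for pools 2 and 3.

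The lean was not shared by all families. For pool 1 against pool 2 the median log2 ratio was 0.62 over 5 measured ephrins, 0.43 over 6 plexins and neuropilins, 0.39 over Reln, Dab1 and Fyn, 0.27 over 4 collapsin response mediator proteins and 0.23 over 13 semaphorins. It was -0.19 over 6 Eph receptors, of which 4 were lower in pool 1 than in pool 2. For pool 1 against pool 3 the ephrins had 0.37, the semaphorins 0.04 and the Eph receptors -0.26. The families hold few genes, and each median describes these 3 arrays.

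Marker lists of retinal and other cells differed in which pool was highest. Ganglion cell markers, of the neurons whose axons leave the eye, summed to 13270.7, 13579.9 and 12923.5 units in pools 1, 2 and 3, and none of 10 was over 2-fold apart. Their median log2 ratio was 0.09 for pool 1 against pool 2 and 0.05 for pool 1 against pool 3. For pool 1 against pool 2, further lists had medians of 0.31 over 12 amacrine and horizontal cell markers, 0.21 over 4 bipolar cell markers and 0.17 over 7 microglia markers. Against pool 3 these lists had 0.03, -0.36 and -0.05. Medians for pool 1 against pool 2 and against pool 3 were -0.18 and 0.09 over 7 Müller glia markers. They were -0.09 and -0.45 over 8 endothelium and pericyte markers, and -0.03 and 0.09 over 5 optic nerve glia markers. Photoreceptor markers had medians of -0.37 and -0.15 for these ratios and summed to 110259.1, 125029.7 and 125761.5 units, lowest in pool 1. Of 15, 11 were lower in pool 1 than in pool 2. A pair of them was called variable: Prph2, a protein of the outer segment disc rim, was highest in pool 1, with 9356.3, 1469.1 and 1332.3 units (limma, adjusted p = 0.00112), and Gnb1, a transducin subunit, was highest in pool 3, with 5367.5, 8246 and 19075.3 units (limma, adjusted p = 0.0422). Lens markers had 1.84 and -1.08 and were highest in pool 3. Of the 11 measured lens markers, 8 were called variable, while of all measured genes 0.225% were. Blood markers summed to 20756.8, 12977.4 and 11012.3 units, a sum carried by the globin genes Hba-a1 and Hbb-b2. Of the 5 blood markers, 3 were highest in pool 1 and 2, Slc4a1 and Klf1, in pool 3. The part of RNA from any of these cells in the members' differences was not tested.

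Promoters of 4 members are shown, chosen after their values were seen. Epha8, Efnb1 and Plxna2 were taken as highest in pool 1. Reln, highest there by a narrow margin with its stronger probe set, was taken as steady. Each is the 250 bases before the RefSeq start of the gene in GRCm38.p6, on the gene's strand. They lie at chr4:136956817-136957066 on the minus strand for Epha8, chrX:99135811-99136060 on the plus strand for Efnb1, chr1:194619579-194619828 on the plus strand for Plxna2 and chr5:22344706-22344955 on the minus strand for Reln. Capitals mark every GGGCGG (the GC box), CANNTG (the E-box), TATAAA and TAATCC, read on both strands.
Epha8: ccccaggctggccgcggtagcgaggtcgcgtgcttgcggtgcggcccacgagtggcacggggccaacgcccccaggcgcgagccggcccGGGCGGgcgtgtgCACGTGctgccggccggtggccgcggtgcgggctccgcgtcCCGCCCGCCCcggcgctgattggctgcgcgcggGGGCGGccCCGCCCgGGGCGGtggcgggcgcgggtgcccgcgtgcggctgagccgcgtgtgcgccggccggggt
Efnb1: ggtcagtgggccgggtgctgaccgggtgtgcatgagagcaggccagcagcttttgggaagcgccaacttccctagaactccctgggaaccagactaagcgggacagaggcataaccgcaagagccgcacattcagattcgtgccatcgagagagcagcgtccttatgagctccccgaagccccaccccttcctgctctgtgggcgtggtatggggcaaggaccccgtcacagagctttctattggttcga
Plxna2: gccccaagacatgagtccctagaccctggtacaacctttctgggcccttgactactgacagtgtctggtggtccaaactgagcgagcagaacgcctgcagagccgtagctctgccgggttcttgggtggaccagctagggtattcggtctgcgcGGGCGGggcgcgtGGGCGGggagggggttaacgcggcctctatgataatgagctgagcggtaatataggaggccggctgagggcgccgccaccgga
Reln: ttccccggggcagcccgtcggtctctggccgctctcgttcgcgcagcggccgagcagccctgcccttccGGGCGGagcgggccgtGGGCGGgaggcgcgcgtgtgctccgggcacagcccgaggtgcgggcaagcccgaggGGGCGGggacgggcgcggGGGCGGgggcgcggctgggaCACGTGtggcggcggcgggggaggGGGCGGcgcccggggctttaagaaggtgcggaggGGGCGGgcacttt

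The 4 promoters differed in the motifs they held. Epha8 held 6 GGGCGG, of which a pair overlap, and 1 CANNTG, with 46 CpG and 84% G or C. Reln held 6 GGGCGG, 1 CANNTG, 37 CpG and 80% G or C. Plxna2 held 2 GGGCGG and 18 CpG, and Efnb1 held none of the 4 motifs and 13 CpG. TATAAA and TAATCC were in none of these windows. Of 32851 promoter windows of the same length, 32.7% held GGGCGG, 66.2% CANNTG, 12.4% TATAAA and 6.25% TAATCC, with a median of 6 CpG and 52.4% G or C. A match describes letters in a window and is not a site.

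Other genes of the guidance pathways were present as well. Of 122 listed genes, 97 had a probe set, 73 were above the floor on all arrays and 78 were measured. None of the 78 passed the test of spread (limma, smallest adjusted p = 0.468, for Mapt), and 7 did at an unadjusted p under 0.05, which 5.1% of all genes had. Over 2-fold apart were 14 (17.9%), beside 12.1% of all genes. The median log2 ratio was 0.17 for pool 1 against pool 2, 0.11 for pool 1 against pool 3 and -0.12 for pool 2 against pool 3, beside 0.00, 0.00 and 0.01 for all genes.

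Downstream of Eph receptors, 12 of 18 listed genes with a probe set were above the floor on all arrays. Ngef, an exchange factor that acts below EphA receptors, had 257.7, 591 and 87.4 units in pools 1, 2 and 3, with pool 3 under its floor and pool 2 at least 4.91-fold higher than pool 3. Tiam1, an exchange factor for Rac, had 563.5, 226.3 and 243.5 units, highest in pool 1. The extremes of these exchange factors thus lay in different pools.

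At the cytoskeletal end of the pathways, the genes named were among the 3 highest means of their lists. Their height over the floor follows from that choice. Of 16 semaphorin partners with a probe set, 12 were measured. Rac1, a small GTPase used by semaphorin and netrin receptors, had 6116.5, 5044 and 5898.1 units in pools 1, 2 and 3. Cfl1, the actin-severing protein cofilin, had 8693.7, 6859.1 and 8437.4 units. Tuba1a, a tubulin bound by the collapsin response mediator proteins, had 43398, 31402.1 and 46863.8 units. Rac1, Cfl1 and Tuba1a were lowest in pool 2, but Limk1 and Tubb3 of the same lists were not. Limk1, on the semaphorin list, had 1088.2, 1697 and 1990.1 units, lowest in pool 1. Tubb3, another tubulin, had 6607.3, 8106.2 and 7031.8 units, highest in pool 2. Of the 14 partner genes of the collapsin response mediator proteins, all above the floor on all arrays, 10 (71.4%) were lowest in pool 2. That was the largest such share of the partner lists, beside 51.3% of all partner genes and 33.8% of all genes. The netrin list had 63.6%, the semaphorin list 58.3% and the slit and Robo list 33.3%, and the lists share genes.

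Among netrin partners, App, which is reported to bind netrin 1, had 6524.3, 5782 and 5943 units in pools 1, 2 and 3. Mapt, encoding tau, had 5236.9, 2016.5 and 3830.3 units, lowest in pool 2 as Ntn1 and Crmp1 were. Its range was 2.60-fold. In the slit and Robo list, Cap1, an actin regulator, had 434.2, 162.9 and 376.8 units, and the chemokine Cxcl12 had 225.8, 351.3 and 158.3 units. They had opposite extremes in pool 2.

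Among reelin partners, Pik3r1, a regulatory subunit of phosphoinositide 3-kinase, had 1320.4, 690.9 and 494.5 units in pools 1, 2 and 3, with pool 1 highest as for Dab1. Of the Nogo family, Rtn1 had 6807.5, 7140.2 and 4828.3 units and Rtn3 had 5813.6, 5791.4 and 5945.1 units. Rtn1 was lowest in pool 3, while the pools of Rtn3 nearly coincided.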

How the data were processed

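RNA of 3 retina pools was measured on Affymetrix U74Av2 arrays, per the labels. The authors deposited 1 linear intensity per probe set and array, already scaled. The sources used here name neither software nor background method, and no further scaling was applied. Beside 12422 probe sets there were 66 controls. Annotation gave 1 symbol to 10833 probe sets, several to 396 and none to 1193. All 69 member identifiers matched the gene table of GRCm38.p6, and 0 symbols changed. Before log2 was taken, lower signals were raised to the floor. The test of spread was run with limma 3.58.1 under R 4.3.3. It had an intercept-only fit, a robust variance prior with an intensity trend, and Benjamini-Hochberg adjustment over 8327 measured probe sets, of which 18 passed 0.05. It was tested on simulated data. Python 3.11.15, pandas 2.3.3, numpy 2.4.6 and matplotlib 3.10.9 did the rest.

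Members and lists were chosen with earlier results of these data known. Every member is named. Values by pool are given for the 5 highest means of each family, members over 2-fold apart and those with several probe sets, and for further members where the text describes a family in full. Partner genes came from the 3 highest means and 2 largest SDs of each list. Alternatives changed the floor, log scale, normalization, filter, probe set class, probe sets per gene, variance prior and arrays used. Promoter sequences are from RefSeq. No array was a copy of another, with at most 9 equal values in a pair.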

Additional observations from a re-analysis of the deposited data

How the results depend on the processing

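No member was called variable under any of the 14 alternatives run for that count. Few genes of any kind were called, from 0 of 6210 with no intensity trend to 35 of 8251 with no filter on low signal. A count of 0 among so few members therefore says little about them. The number of members above the floor on all arrays ran from 34 with the floor at the highest control probe set to 45 with it at the median control. The count over 2-fold apart moved most. It was 11 as reported (25% of members, beside 12.1% of all genes), 15 with the floor at the median control (29.4%, beside 22.4%), 7 with the floor at the highest control (17.5%, beside 7.07%), 6 with log2(signal + 100) in place of the floor (13.6%, beside 6.96%) and 6 among probe sets above the floor on all arrays (15.4%, beside 8.63%). With 1 array left out it was 3 to 6, where fewer pairs exist by construction, with 3 (6.82%, beside 5.0%) without pool 1. The cause of the other changes was not tested. The median SD stayed between 0.23 and 0.34 on the log2 scale. The median log2 ratio of pool 1 over pool 2 ranged from 0.09 to 0.27, that of pool 1 over pool 3 from 0.07 to 0.22, and that of pool 2 over pool 3 from -0.04 to 0.05. The adjusted p of Sema4b ranged from 0.168 to 0.995. Leaving out Unc50 and, for the pair medians, keeping only genes above the floor on all arrays without a suffix class were chosen after seeing the data. No paired analysis was possible because there is 1 group. With 3 arrays and no control genotype, these values describe pools that the descriptions place in 1 mutant group, pool 1 with a title that lacks the tag, and members near the floor, such as Robo1 and Sema3a, have little signal over background.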
